A study of Homo sapiens with 6 samples.

Results

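The comparison described here is the knockdown of NCOA3 against a control siRNA in MDA-MB-231 cells, a long-established human cell line from a triple-negative breast cancer, that is, one without oestrogen receptor, progesterone receptor or amplified HER2. It holds 4 of the 6 libraries of the study, chosen by their labels: cells transfected with siControl or with siNCOA3 and collected 24 h or 48 h later, with 1 library for each siRNA and time. The other 2 libraries were from the same line transfected with siSHC1, an siRNA against the adaptor protein SHC1, and collected at the same times. All groups share the cell line and the transfection. Of 20111 genes in the deposited table, 11699 had at least 1 FPKM, a fragment count corrected for gene length and library size, in at least 2 libraries and were tested. The title of the series speaks of nuclear receptors and coregulators.

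NCOA3, also called SRC-3 or AIB1, belongs to the p160 family of coactivators, together with NCOA1 and NCOA2. These proteins bind ligand-activated nuclear receptors and recruit acetyltransferases such as EP300 and CREBBP and methyltransferases such as CARM1 to target genes, and they also assist other transcription factors. NCOA3 is amplified or overexpressed in a share of breast cancers, and it is known for growth and invasion phenotypes in lines with and without oestrogen receptor. An siRNA is a short RNA duplex, one strand of which guides an Argonaute protein to transcripts that pair with it.

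The totals of the 6 libraries ran from 495518 to 553073 FPKM. The depth in reads is unknown, and no label states that the libraries are separate cultures, so that the p-values describe the spread among these libraries alone, and that spread may be technical. Of 13 mesenchymal markers 12 reached 1 FPKM in at least 1 library, with VIM between 887 and 1020 FPKM in the 4 libraries. So did 9 of 16 luminal markers, 3 of 9 leukocyte markers and 4 of 10 markers of fibroblasts and endothelium. ESR1 was at most 0.0321 FPKM in those libraries and PGR was listed at 0 in all 6. The leukocyte gene PTPRC was at most 0.0253 FPKM in the 4 libraries. In bulk RNA of this kind, fewer cells of a state and less RNA per cell cannot be told apart.

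NCOA3 itself stood at 10.3 FPKM in siControl and 1.72 FPKM in siNCOA3 at 24 h. At 48 h it stood at 11.4 FPKM in siControl and 1.85 FPKM in siNCOA3. The siNCOA3 libraries were thus far below the siControl libraries at both times, with 15.4% and 16.4% of the control level left after scaling between libraries. In a model fitted over all genes and all 6 libraries, with terms for siRNA and time, NCOA3 fell by 2.12 ± 0.10 on the scale of log2(scaled FPKM + 1) (SE, with 2 libraries of each siRNA, limma adjusted p = 0.00111). All differences below are on this scale, on which changes of genes at low levels come out too small. The other p160 members had no such difference. NCOA1 went from 6.68 to 7.84 FPKM (24 h) and 7.70 to 8.46 FPKM (48 h), and NCOA2 went from 4.57 to 4.86 and from 5.04 to 4.13 FPKM. Neither passed the test, with a fitted difference of 0.12 ± 0.11 for NCOA1 and -0.12 ± 0.12 for NCOA2. Of the 11 p160 members and partner enzymes on the list, NCOA3 was the 1 called, and the others lay between -0.12 and 0.14 (PRMT1, an arginine methyltransferase).

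Across the transcriptome few genes passed the test, and those that did were lower after siNCOA3. In the model 13 of 11699 genes changed (limma, Benjamini-Hochberg adjusted p under 0.05), which is 0.111% of the genes tested, and all 13 fell. By limma 0 genes rose, while at an unadjusted p under 0.05 there were 673 lower and 559 higher. That balance turned with the scaling, to 394 lower and 820 higher without scaling and 829 lower and 406 higher with equal library totals, whereas the called genes were all lower in both. Both siNCOA3 libraries stood below both siControl libraries in 19.0% of all genes tested and above them in 20.5%. Alternatives that called genes higher were the fit without the siNCOA3 library of 24 h, with 3, and those without 1 or both siSHC1 libraries, with 1 each. Leaving out a siControl library gave 6 calls (24 h) or 3 calls (48 h), and leaving out the siNCOA3 library of 48 h gave 6. Without the filter on low values limma called 0 genes, with 1377 at an unadjusted p under 0.05.

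Each time gives a difference between 2 libraries that the other time does not share, so the times were also set side by side without a test. At 24 h 170 genes were at least 1.5-fold lower and 113 at least 1.5-fold higher. At 48 h these were 303 and 152. Past 1.5-fold at both times were 49 genes lower, or 0.419% of those tested, and 16 higher, or 0.137%. The 49 are 28.8% of the falls of 24 h and 16.2% of the falls of 48 h, and the 16 are 14.2% and 10.5% of the rises. A further 23 genes passed 1.5-fold in opposite directions, 7 of them lower at 24 h and 16 lower at 48 h. Past 2-fold, 7 genes were lower and 4 higher at both times.

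The agreement of the times grew with the level of a gene. Over all tested genes the differences at 24 h and 48 h had a Pearson correlation of 0.199 across genes, which are not independent replicates, and 56.5% of genes had the same sign. Among the 1777 genes with a mean of 50 FPKM or more the correlation was 0.411 and 63.9% shared the sign. Among the 2786 genes under 5 FPKM it was 0.126, and 12 of the 16 rises that held at both times came from these genes, against 16 of the 49 falls. The spread of the differences was 0.23 at 24 h and 0.273 at 48 h (SD across genes), and 5.56% of genes passed 1.5-fold at one time or the other.

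**Figure D1:**
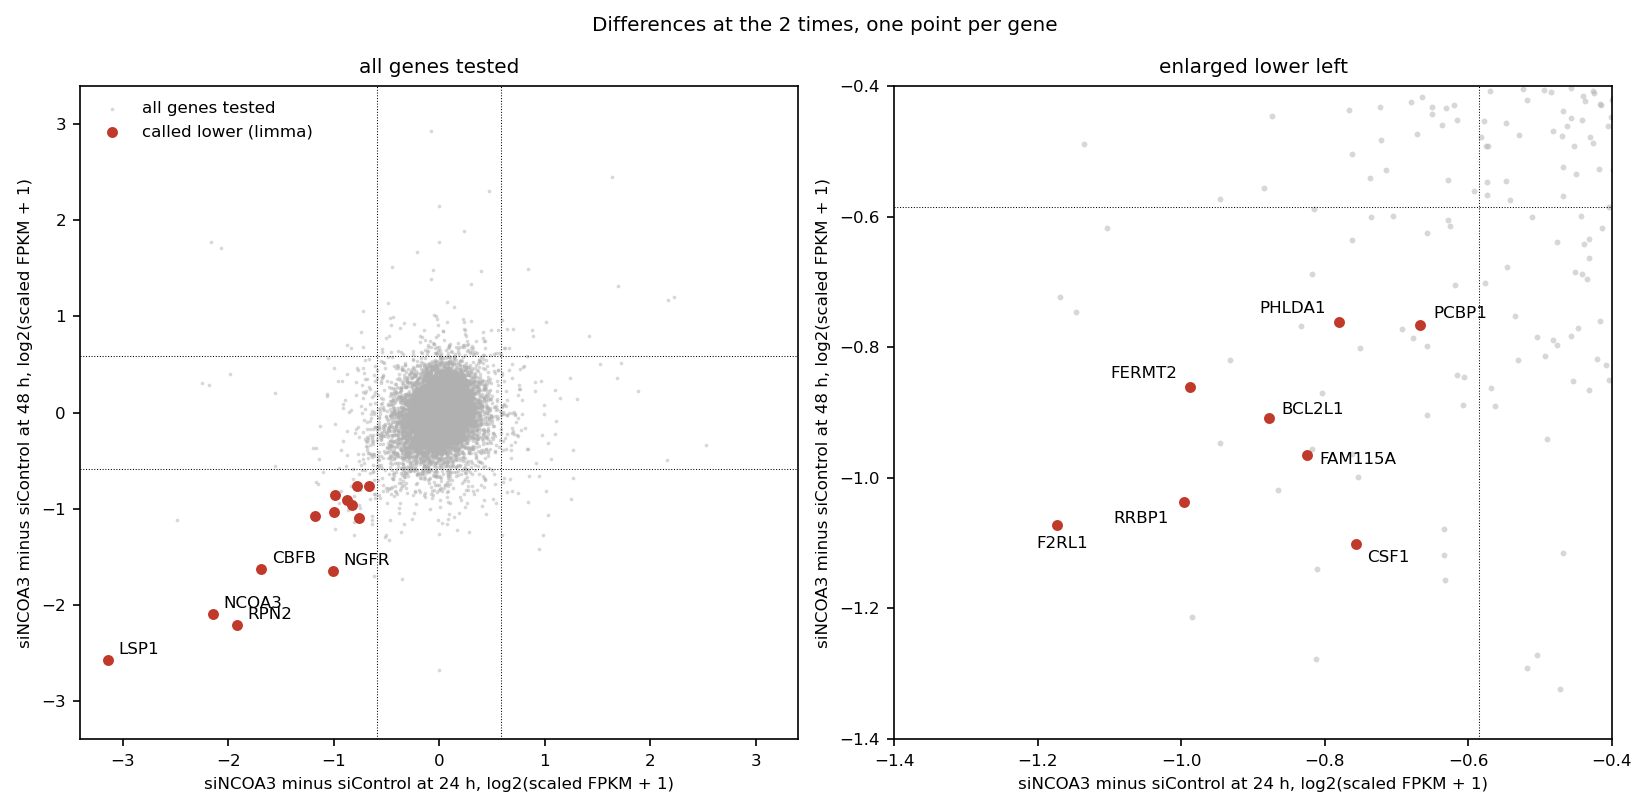
Each point is a gene, with the difference between siNCOA3 and siControl on the log2(scaled FPKM + 1) scale at 24 h (x axis) and at 48 h (y axis). Red points are the 13 genes called lower, dotted lines mark 1.5-fold, and the right panel enlarges the lower left, where the called genes sit apart from most of the 11699 genes tested.

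The largest falls other than NCOA3 included 2 proteins of the rough endoplasmic reticulum (ER). RPN2 encodes ribophorin II, a subunit of the oligosaccharyltransferase that attaches N-glycans to new proteins. It stood at 213 and 273 FPKM in the siControl libraries of 24 h and 48 h and at 59.9 and 57.3 FPKM in the siNCOA3 libraries, so 26.1% and 21.3% of the control level were left. RPN2 fell by 2.07 ± 0.09 (SE, with 2 libraries of each siRNA, limma adjusted p = 9.9e-04). The other 11 subunits on the list were not called, and their fitted differences ran from -0.21 for the catalytic subunit STT3A to 0.15 for DAD1. RPN1, the partner ribophorin, went from 65.8 to 76.5 FPKM (24 h) and 75.7 to 73.4 FPKM (48 h).

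RRBP1, a ribosome-binding protein of the ER membrane, stood at 163 and 179 FPKM in siControl and at 87.7 and 85.5 FPKM in siNCOA3. That left 49.8% and 48.4% of the control level, and RRBP1 fell by 1.02 ± 0.07 (limma adjusted p = 0.00584). It was the 1 called member among 25 genes of ER targeting and translocation. Of these 25 genes 19 lay above 0 in the fit, beside 5942 of all 11699 genes tested. The list's median was 0.04 beside 0.00 over all genes tested. Without the siControl library of 48 h 12 of the 25 lay above 0 and the median was -0.01. By time the list's medians were 0.02 (24 h) and 0.08 (48 h), beside 0.03 and 0.05 among all genes with a mean of 50 FPKM or more. After RRBP1 the largest in size were SEC61G, a subunit of the translocation channel, at 0.20 and SSR4 at 0.18.

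CBFB encodes the partner subunit that RUNX transcription factors need to bind DNA firmly. It stood at 35.6 and 35.8 FPKM in siControl and at 11.3 and 10.7 FPKM in siNCOA3, and it fell by 1.66 ± 0.12 (limma adjusted p = 0.00637). The siNCOA3 libraries were close to each other and far below the controls, and CBFB was also lower than the same controls under siSHC1, as given below. RUNX1 went from 38.0 to 45.1 FPKM (24 h) and 42.3 to 44.7 FPKM (48 h), and RUNX2 from 18.3 to 17.9 and from 20.7 to 17.9 FPKM. Neither RUNX gene passed the test.

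Called as well were the receptor genes NGFR and F2RL1 and the adaptor gene FERMT2. NGFR, the low-affinity neurotrophin receptor, stood at 31.6 and 54.9 FPKM in siControl and at 16.5 and 16.6 FPKM in siNCOA3. Its control level was higher at 48 h while the knockdown level was the same, so the part left was 48.3% at 24 h and 30.6% at 48 h (limma adjusted p = 0.0484). F2RL1, a protease-activated receptor that trypsin-like proteases cleave, stood at 32.0 and 34.8 FPKM in siControl and 14.7 and 15.8 FPKM in siNCOA3, and fell by 1.12 ± 0.09 (limma adjusted p = 0.00689). FERMT2, or kindlin-2, which binds integrin tails and activates integrins, stood at 26.2 and 25.6 FPKM in siControl and 13.8 and 13.5 FPKM in siNCOA3 (limma adjusted p = 0.0484). It was the 1 called member of 25 tested integrins and focal adhesion adaptors. Among these ITGA1 stood at -0.28, ITGA6 at -0.23 and LIMS1 at -0.17, whereas FERMT3 stood at 0.18. In the fit 7 of the 25 lay above 0 and 18 below, beside 5942 above and 5757 below among all genes tested.

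CSF1, the macrophage growth factor, stood at 76.6 FPKM in siControl and 48.6 FPKM in siNCOA3 at 24 h, and at 125 and 56.8 FPKM at 48 h. As with NGFR, the control level was higher at the later time, and the part left went from 58.7% to 46.2% (limma adjusted p = 0.0429). BCL2L1, the gene of the anti-apoptotic protein BCL-XL, stood at 167 and 191 FPKM in siControl and at 97.6 and 99.7 FPKM in siNCOA3, and fell by 0.89 ± 0.07 (limma adjusted p = 0.00637). None of the other 15 tested members of the BCL2 family was called. BAK1, a pore-forming death effector, went from 35.1 to 41.1 FPKM and from 35.6 to 42.7 FPKM, a fitted difference of 0.19 ± 0.08 that did not pass. BIK and BBC3, of the same family, stood the other way, at -0.30 ± 0.21 and -0.16 ± 0.22. Of the 16 tested members 8 lay above 0 in the fit and 8 below, with a median of 0.01.

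The remaining called genes were PHLDA1, PCBP1, FAM115A and LSP1. PHLDA1, a gene that ERK signalling induces, stood at 78.3 and 84.6 FPKM in siControl and 48.8 and 48.9 FPKM in siNCOA3 (limma adjusted p = 0.0224). PCBP1, a poly(C)-binding RNA regulator, stood at 152 and 178 FPKM in siControl and 103 and 103 FPKM in siNCOA3 (limma adjusted p = 0.0244). Its close relative PCBP2 stood at -0.05 in the fit and HNRNPK, of the same domain family, was not called either. FAM115A, now named TCAF1, stood at 18.9 and 26.4 FPKM in siControl and 11.1 and 12.9 FPKM in siNCOA3 (limma adjusted p = 0.0278). LSP1, a leukocyte actin-binding protein, was listed at 7.37 and 5.08 FPKM in siControl and at 0 in both siNCOA3 libraries (limma adjusted p = 0.00567). No fold is given against a value listed at 0.

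**Figure D2:**
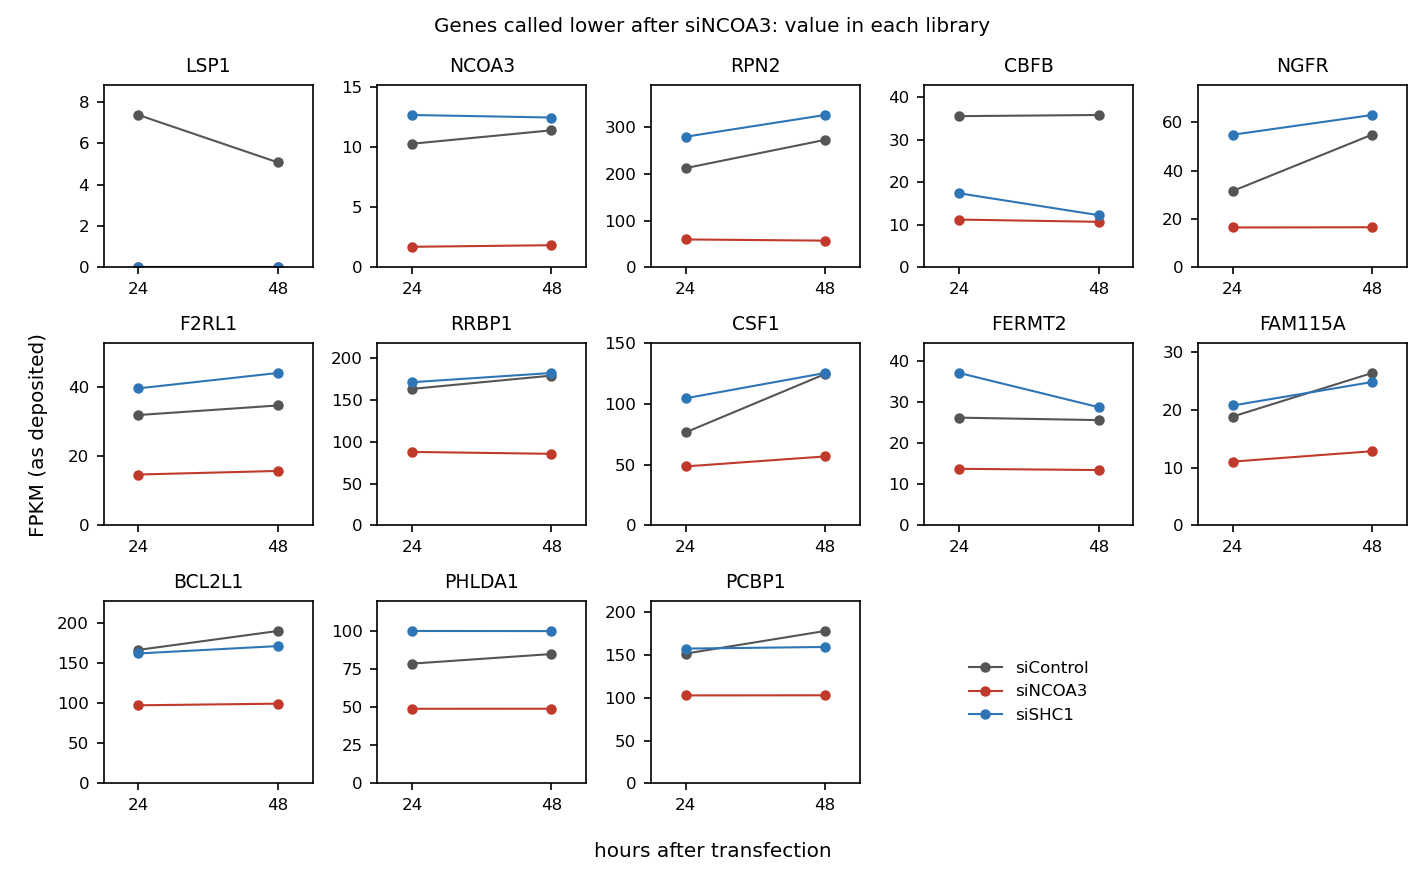
Each panel shows 1 of the 13 called genes, with FPKM as deposited (y axis, from 0) against hours after transfection (x axis), and 1 point per library. The siNCOA3 points lie below both siControl points in every panel, as in 19.0% of all genes tested after scaling, and the siSHC1 points lie near or above siControl except for CBFB and LSP1, where both siNCOA3 points are hidden under the siSHC1 points at 0.

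The siSHC1 libraries show whether these levels also stand below those under another siRNA, though the siNCOA3 libraries are the same as in the comparison above. RPN2 was at 280 and 326 FPKM under siSHC1, and lower under siNCOA3 by a difference of -2.36 ± 0.09 (limma adjusted p = 2.01e-04). NGFR was at 54.9 and 63.0 FPKM under siSHC1, a difference of -1.78 ± 0.15 (limma adjusted p = 0.00247), and F2RL1 was at 39.7 and 44.2 FPKM, a difference of -1.41 ± 0.09 (limma adjusted p = 8.6e-04). CBFB, in contrast, was at 17.4 and 12.3 FPKM under siSHC1, and its difference of -0.39 ± 0.12 from siNCOA3 did not pass (limma adjusted p = 0.0843). LSP1 was listed at 0 in both siSHC1 libraries as well. Among all genes 1163 differed between siNCOA3 and siSHC1, or 9.94% of those tested. This count became 229 without the siNCOA3 library of 48 h, 466 or 252 when the siSHC1 library of 24 h or of 48 h was left out, and 4 when low values were not filtered.

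A 7-base word recurs in the 3′ UTRs of RPN2, CBFB and 4 more of the called genes and in the NCOA3 coding sequence, and these sites are shown because the comparison after them turns on the word. The word, GTCAAGA, was already known from an earlier look at these data, so its values are a description. It was searched on the transcript strand only, in the longest annotated 3′ UTR of each gene (GENCODE 29, on GRCh38, where 11397 tested genes were found by symbol). NCOA3 and RPN2 lie on chromosome 20, CBFB on 16, CSF1 on 1, PCBP1 on 2, PHLDA1 on 12 and FAM115A on 7. The sites are written 5′ to 3′ in lower case, with the word in capitals. The NCOA3 sites start at bases 2333 and 3999 of the coding sequence, and its 3′ UTR of 3460 bases does not hold the word. In RPN2 the word stands at bases 36 and 49 of a 3′ UTR of 308 bases, so that the second stretch below repeats part of the first.
NCOA3, coding, first: ctccaccattcctagctcaaGTCAAGAga
NCOA3, coding, second: cctcccaatgcaatgatgtcGTCAAGAat
RPN2, first: ggaaattctgaaaactgaatGTCAAGAaa
RPN2, second: actgaatgtcaagaaaaggaGTCAAGAac
CBFB: ttcatgtcatttaaaaacaaGTCAAGAaa
CSF1: ccccttctgttctctgagaaGTCAAGAga
PCBP1: tttcagtttagttctgtaatGTCAAGAat
PHLDA1, first: gatgcaggaaacgatttcgaGTCAAGAag
FAM115A, last: agatgttgtaaagtcagtaaGTCAAGAaa
Beyond the word the stretches were compared with the NCOA3 sites base by base. Of the 13 bases just before the word, CBFB, CSF1 and the first PHLDA1 site have 5 in common with the first NCOA3 site, and the RPN2 sites have 3. The third FAM115A site has 6 in common with the second NCOA3 site. The most, 9, were in C12orf23, which fell short of a call (limma adjusted p = 0.0593) and is named for this match. It is the highest count over the sites of called genes and of genes 1.5-fold lower at both times. Each site was set against both NCOA3 sites, and counts ran down to 0 (REEP3, second NCOA3 site). Word sites of other genes were not compared, so whether these counts stand above a background was not tested. FAM115A holds the word 4 times in its 3′ UTR and PHLDA1 2 times, and it is absent from the 3′ UTRs of BCL2L1, F2RL1, FERMT2, LSP1, NGFR and RRBP1.

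Because the word was known from an earlier look at these data, the shares that follow are a description and no independent evidence. Of the 12 called genes other than NCOA3, 6 hold the word in the 3′ UTR, or 50%. Among the 43 genes with a 3′ UTR that were 1.5-fold lower at both times, NCOA3 left out, 17 hold it, or 39.5%, and among the 9 that were 1.5-fold higher, 1 holds it. Of all 11397 genes 1062 hold it, or 9.32%. Genes with the word have long 3′ UTRs, with a median of 3250 bases beside 1220 for the rest, so genes with a 3′ UTR of 1000 to 3000 bases were also compared. There the 391 genes with the word had a median difference of -0.07 at 24 h and -0.07 at 48 h, and the 3968 genes without it had 0.00 at both times. Both of the latter medians are within 0.01 of 0. In the siSHC1 libraries the same 391 genes had medians of 0.01 and 0.00 against the same siControl libraries. Without regard to length, the 942 genes that hold the word once had medians of -0.05 and -0.06. The 120 genes that hold it at least 2 times had -0.04 and -0.02, no lower, and under siSHC1 they had -0.04 and -0.06. Among 15804 words that occur in at least 100 genes, GTCAAGA had the lowest mean difference at 24 h (rank 1). At 48 h it had the third lowest (rank 3), and the second-ranked word of 24 h had rank 1382. As GTCAAGA was already known from these data, its ranks at either time are no independent check. No source used here gives the siRNA sequences, and the part of the word in the falls was not tested.

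**Figure D3:**
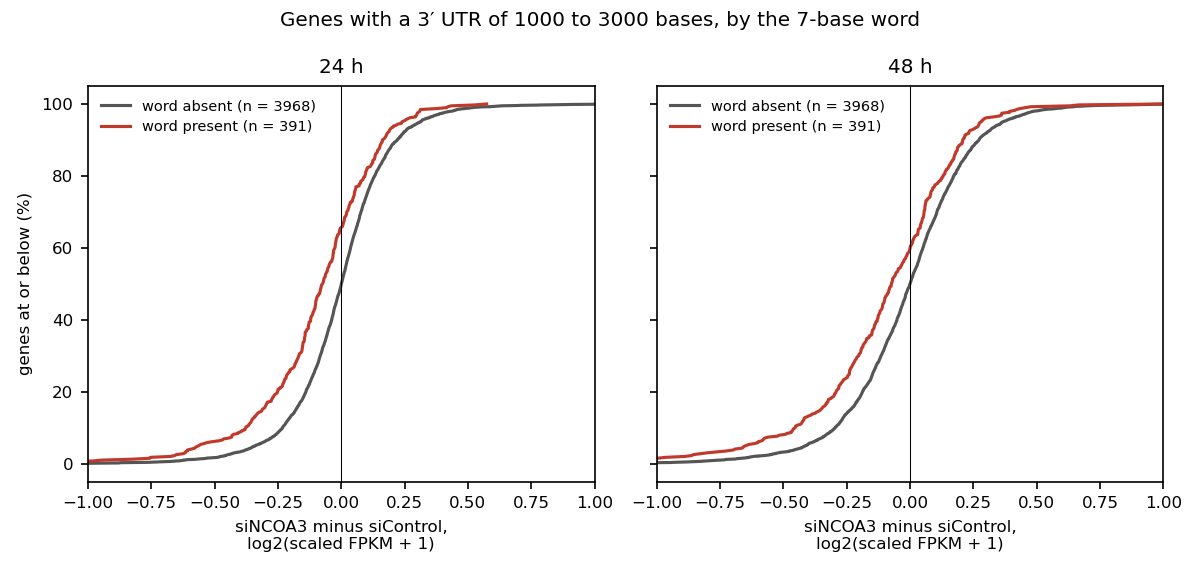
Cumulative share of genes (y axis, %) by the difference between siNCOA3 and siControl (x axis, log2 scale) at 24 h and 48 h, for genes with a 3′ UTR of 1000 to 3000 bases with (red, n = 391) or without (grey, n = 3968) the 7-base word. The red curve lies to the left of the grey one at both times.

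Falls that held at both times without a call lay at adjusted p-values from near the threshold to far above it. Between an adjusted p of 0.05 and 0.1 lay 13 further genes, and all 13 were lower after siNCOA3. By the rule for named genes, GINM1, a glycosylated membrane protein, went from 17.4 to 10.2 FPKM (24 h) and 17.97 to 8.65 FPKM (48 h) (limma adjusted p = 0.0885). The receptor-like kinase STYK1 went from 6.12 to 3.26 FPKM and from 7.36 to 3.85 FPKM (limma adjusted p = 0.0885). CSF2, or GM-CSF, went from 17.3 to 9.31 FPKM and from 23.3 to 12.6 FPKM, with a wide error of 0.36 on a difference of -0.88 (limma adjusted p = 0.499). Its siSHC1 libraries lay apart, at 24.1 and 11.9 FPKM, and it was called in 3 of 16 alternatives, each of which left out siSHC1 libraries (limma adjusted p between 0.0469 and 0.99 over all alternatives).

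Several more of these were chosen for naming once their values were known. MDC1, a mediator of the DNA damage checkpoint, went from 15.6 to 9.59 FPKM and from 17.7 to 9.59 FPKM (limma adjusted p = 0.0503). AP2B1, a subunit of the clathrin adaptor AP-2, went from 96.1 to 67.7 FPKM and from 118 to 62.2 FPKM (limma adjusted p = 0.0572). SH2B3, an adaptor that restrains cytokine receptor signalling, went from 38.3 to 25.2 FPKM and from 40.9 to 23.2 FPKM (limma adjusted p = 0.0593). TMED10, a cargo receptor between ER and Golgi, went from 45.1 to 31.1 FPKM and from 47.2 to 30.3 FPKM, and TNFSF10, the death ligand TRAIL, from 27.0 to 18.4 and from 47.5 to 21.0 FPKM. AP2B1, SH2B3, TMED10 and GINM1 hold the word GTCAAGA once in the 3′ UTR, as 9.32% of all genes with a 3′ UTR hold it at least once. No site was found for CSF2, MDC1, STYK1 and TNFSF10.

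Rises at both times were fewer and lower in level, and none passed the test. AMMECR1 went from 3.70 to 6.80 FPKM (24 h) and 3.13 to 6.50 FPKM (48 h), a difference of 0.76 ± 0.14 (limma adjusted p = 0.184). TBC1D24, a protein of vesicle traffic, went from 4.32 to 9.09 FPKM and from 5.48 to 8.62 FPKM (limma adjusted p = 0.153). TRMT11, a subunit of a tRNA methyltransferase, went from 9.91 to 15.8 FPKM and from 10.4 to 16.2 FPKM, while its siSHC1 libraries stood at 10.9 and 10.8 FPKM. At these 3 genes both siNCOA3 libraries stood above both siControl libraries, as they did in 20.5% of all genes tested. AMMECR1 and TBC1D24 were also above siControl under siSHC1, at 6.71 and 4.44 FPKM and at 6.67 and 6.63 FPKM.

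For some of the rises the siSHC1 libraries, compared with the same controls, also stood above siControl. CPA4, a carboxypeptidase, went from 18.8 to 33.4 FPKM and from 21.0 to 29.8 FPKM, and stood at 31.0 and 38.4 FPKM under siSHC1. GPRC5A, an orphan receptor that retinoic acid induces, went from 28.5 to 42.1 FPKM and from 30.2 to 50.6 FPKM, and stood at 41.1 and 51.0 FPKM under siSHC1. FAM102A, TMCC1 and POP1, a subunit of RNase P, likewise had siSHC1 values above siControl at both times, with FAM102A at 12.8 and 14.5 FPKM in siControl, 19.2 and 21.3 in siNCOA3 and 18.5 and 20.1 in siSHC1. FSCN1, the actin-bundling protein fascin of invasive protrusions, went from 12 to 19.0 FPKM and from 15.0 to 20.2 FPKM, with 12.3 and 17.2 FPKM under siSHC1. TRDMT1, an RNA methyltransferase, went from 6.80 to 13.6 FPKM and from 5.02 to 7.32 FPKM. Among genes averaging 5 FPKM or more, the largest rises by the smaller difference were in AC012360.2 and CTC-429P9.4, which had uneven controls. AC012360.2 was at 63.2 and 25.4 FPKM in siControl and at 215 and 142 FPKM in siNCOA3, with 21.4 and 195 FPKM under siSHC1.

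A few genes differed at 1 time alone. HAGHL stood at 10.5 and 10.7 FPKM in siControl and siNCOA3 at 24 h and at 8.13 and 67.9 FPKM at 48 h, with 46.9 and 29.1 FPKM under siSHC1. ETV6, an ETS-family repressor, went from 33.6 to 6.83 FPKM (24 h) and 13.1 to 16.3 FPKM (48 h). LUZP6, whose transcript overlaps that of MTPN, ranged from 20.4 to 193 FPKM between the siControl libraries. For each of these genes the controls of the 2 times, or the siSHC1 libraries, also differed, and with 1 library per siRNA and time no test of the time difference was possible.

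The gene lists were described by their counts and medians, beside a median of 0.00 over all genes tested at either time. Cytosolic ribosomal protein genes lay above 0 at both times in 69 of 75, or 92%, beside 28.8% of all genes, and none was called. Genes at high levels lay above 0 more often. Among the 1777 genes with a mean of 50 FPKM or more, 788 did so at both times, with medians of 0.03 and 0.05. The ribosomal median was 0.11 at 24 h and 0.21 at 48 h, a shift of the same sign without scaling (0.21 in the fit) and with equal library totals (0.13). RPLP1 went from 768 to 956 FPKM (24 h) and 822 to 1016 FPKM (48 h), and RPS26 had the largest fitted difference, 0.31 ± 0.11. In the siSHC1 libraries the ribosomal median was 0.03 at 24 h and 0.05 at 48 h. Nuclear-encoded genes of oxidative phosphorylation lay above 0 at both times in 34 of 53, or 64.2%. Their medians were 0.09 and 0.12 with none called, and the siSHC1 medians were 0.07 and 0.12. UQCRH, a subunit of complex III, went from 133 to 165 FPKM and from 131 to 162 FPKM. NRF2 targets, the genes of antioxidant defence, had medians of 0.07 and 0.21 with none called, and 0.15 and 0.13 under siSHC1. Their fitted median was 0.12, or 0.03 without the siNCOA3 library of 48 h, and HMOX1 went from 9.01 to 11.5 FPKM and from 9.71 to 13.1 FPKM.

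Inflammatory genes stood on the lower side at both times. Of 22 tested genes of NF-kB and inflammatory cytokines, 17 lay below 0 at both times, or 77.3%, beside 27.7% of all genes, and CSF1 was the 1 called. The list's medians were -0.23 at 24 h and -0.27 at 48 h, and under siSHC1, against the same controls, they were -0.04 and -0.24. The chemokine genes CXCL1 and IL8 stood low, with CXCL1 at 1.74 and 1.10 FPKM at 24 h and 5.14 and 2.36 FPKM at 48 h in siControl and siNCOA3. Under siSHC1 CXCL1 was at 0.639 and 0.729 FPKM. NFKBIZ, an inducible nuclear regulator of NF-kB, went from 6.17 to 5.49 FPKM (24 h) and 15.6 to 6.95 FPKM (48 h). In the fit 20 of the 22 genes were below 0, and the list's fitted median was -0.23, or -0.19 without scaling and -0.25 with equal library totals.

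The medians of lipid and stress lists were lower at the later time, when the siControl levels of most of the genes named here were higher than at 24 h. Of 33 tested genes of cholesterol synthesis and SREBP targets the median was 0.06 at 24 h and -0.40 at 48 h, and none was called. SCD, the stearoyl-CoA desaturase, was at 54.4 FPKM in siControl at 24 h and 160 FPKM at 48 h, but at 66.3 and 67.0 FPKM in siNCOA3. INSIG1, a sterol sensor that holds SREBP in the ER, was at 33.7 and 94.6 FPKM in siControl and at 38.8 and 44.4 FPKM in siNCOA3. HMGCS1, an early enzyme of the pathway, was at 8.998 and 20.3 FPKM in siControl and 10.3 and 10.4 FPKM in siNCOA3. The list's fitted median was -0.15, but 0.11 without the siNCOA3 library of 48 h and -0.45 without that of 24 h. Under siSHC1 the list's medians were 0.27 and 0.49 against the same controls. The list of the unfolded protein response and ATF4 targets, with 34 genes, had a median of -0.01 at 24 h and -0.26 at 48 h, and none was called. Its fitted median was -0.145, or -0.07 without the siNCOA3 library of 48 h, and its medians under siSHC1 were 0.16 and 0.12 against the same controls. ASNS, the asparagine synthetase, was at 21.2 and 42.7 FPKM in siControl and at 17.6 and 17.3 FPKM in siNCOA3, and SLC7A5, an amino acid transporter, stood the other way, at 133 and 114 FPKM in siControl and 178 and 177 FPKM in siNCOA3. The 30 tested interferon response genes had medians of 0.03 and -0.19 with none called, and a fitted median of -0.07 that became 0.06 without the siNCOA3 library of 48 h. MX1, an antiviral GTPase, stood at -0.30 in the fit.

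**Figure D4:**
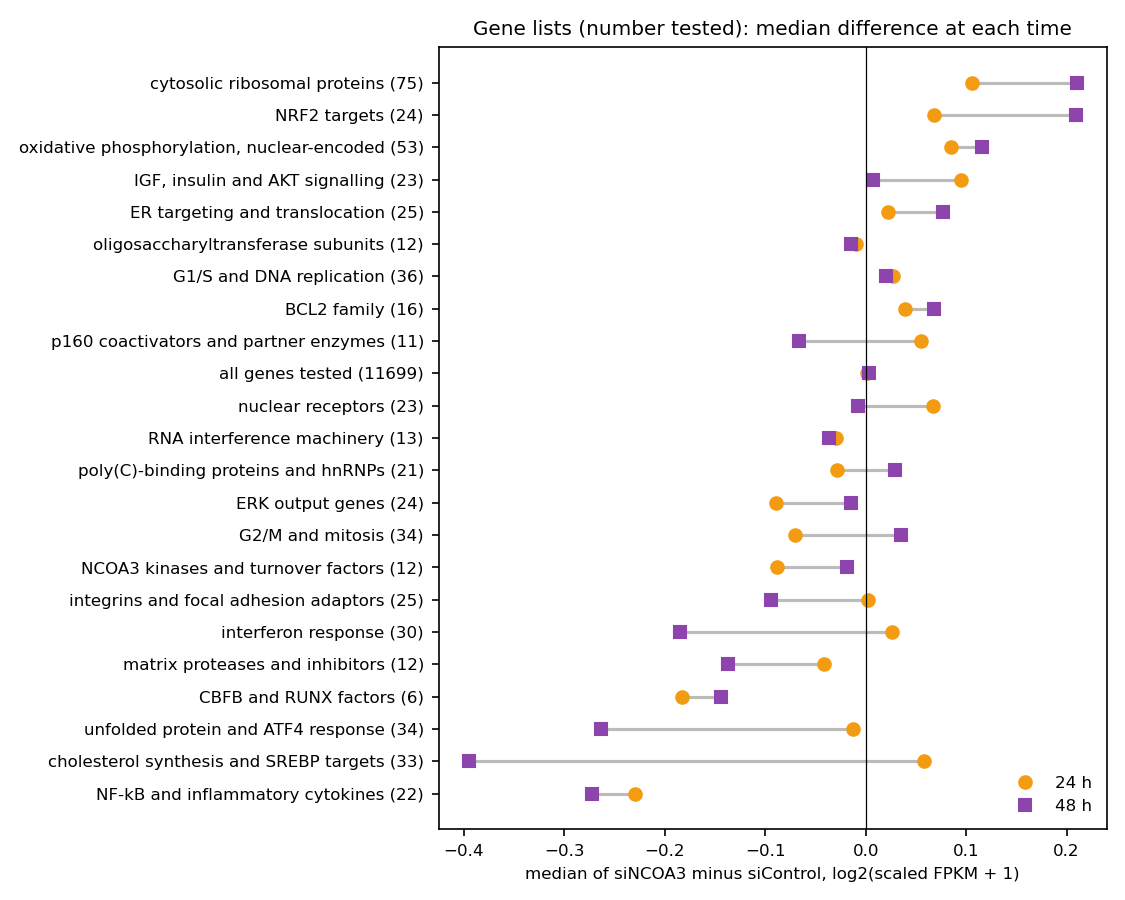
For each gene list (number of genes tested in brackets), the circle is the median difference between siNCOA3 and siControl at 24 h and the square that at 48 h, on the log2(scaled FPKM + 1) scale. Cytosolic ribosomal proteins lie above 0 and NF-kB genes below 0 at both times, while cholesterol synthesis moves from 0.06 to -0.40.

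The lists closest to the known work of NCOA3 held few or no calls. None of 23 tested nuclear receptors was called, and ESRRA, an orphan receptor of energy metabolism, had the largest fitted difference, 0.35 ± 0.10, followed by NR2F2 at 0.29 and RARA at 0.25. Of 12 kinases and turnover factors of NCOA3 none was called. Among them PSME3, the proteasome activator that promotes NCOA3 breakdown, had the largest difference, going from 132 to 90.3 FPKM (24 h) and 118 to 85.8 FPKM (48 h) (limma adjusted p = 0.118). None of 23 genes of IGF, insulin and AKT signalling was called. Its medians were 0.09 and 0.01, and IGF1R stood at 4.28 and 10.9 FPKM in the 2 siControl libraries and 9.07 and 8.02 FPKM in siNCOA3. None of 12 tested matrix proteases and inhibitors was called, with MMP14, a membrane-bound protease, at -0.31 and TIMP3 at -0.29. Of 24 ERK output genes PHLDA1 was the 1 called, and HBEGF, a ligand of the EGF receptor, went from 30.1 to 20.04 FPKM and from 25.8 to 20.6 FPKM.

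Cell cycle lists had medians near 0. The 36 tested genes of G1/S and DNA replication had medians of 0.03 and 0.02 and the 34 genes of G2/M and mitosis had medians of -0.07 and 0.04, and none of either list was called. MCM3, a subunit of the replicative helicase, went from 112 to 93.0 FPKM and from 115 to 78.7 FPKM (limma adjusted p = 0.16), whereas the cyclin gene CCNE2 went from 11.02 to 16.2 FPKM and from 8.06 to 11.4 FPKM (limma adjusted p = 0.249). MKI67, the proliferation marker, stood at -0.17 in the fit. The 13 genes of the RNA interference machinery had medians of -0.03 and -0.04 with none called, and a fitted median of -0.01 that became 0.02 without scaling. TNRC6C, an Argonaute partner, went from 8.11 to 5.54 FPKM and from 8.30 to 4.64 FPKM (limma adjusted p = 0.16). Of further lists, that of 21 poly(C)-binding proteins and hnRNPs had PCBP1 as its 1 called member, and the CBFB and RUNX list of 6 tested genes had CBFB.

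No marker of cell type or state was called. The summed level of the 13 mesenchymal markers was 4524 and 5421 FPKM in siControl and 4955 and 5009 FPKM in siNCOA3, and that of the 16 luminal markers 567.8 and 680.1 FPKM in siControl and 686.7 and 729.4 FPKM in siNCOA3. In the fit 6 of the 12 tested mesenchymal markers lay above 0 and 6 below. Of the 8 tested luminal markers 4 lay above 0 and 4 below. KRT8, a keratin of simple epithelia, went from 206 to 263 FPKM and from 238 to 285 FPKM. TGFBI, a matrix protein that TGF-beta induces, went from 61.2 to 49.8 FPKM and from 69.7 to 50.2 FPKM (limma adjusted p = 0.196). The summed leukocyte markers were 68.6 and 98.4 FPKM in siControl and 82.5 and 78.7 FPKM in siNCOA3, nearly all from CD68, HLA-DRA and CD14, and those of fibroblasts and endothelium were 6.58 to 10.4 FPKM in the 4 libraries.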

How the data were processed

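RNA of 6 libraries was measured, and the 4 of siControl and siNCOA3 are compared here. Per the labels' protocols, the RNA came from Trizol extraction and the kit keeps strand. The tools named per the submitters' processing notes are STAR, DESeq2 and Cufflinks, and the build is hg19. Their roles and versions, the annotation and the use of strand are not stated in what was used here. The values the authors deposited are not whole and are taken as FPKM, so reads that overlapping, read-through or near-identical genes share may be split between them.

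FPKM were scaled by the median of ratios over 13878 genes above 0 in all 6 libraries (factors 0.946 to 1.02). Genes that reached 1 FPKM in 2 or more libraries were tested on log2(scaled FPKM + 1) with limma 3.58.1 in R 4.3.3 (trend and robust moderation). The model held siRNA and time over all 6 libraries and left 2 residual degrees of freedom; time thus pairs the libraries. P-values were adjusted by Benjamini-Hochberg over all genes tested, at a threshold of 0.05. The fit was tested on simulated data. Words were searched in 3′ UTRs of at least 30 bases with Python 3.11.15; 97.4% of tested genes matched a symbol in the annotation, which is of another build.

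The members, lists and tests were chosen with earlier results of these data known. The rule names NCOA3, every called gene, the 12 largest falls and 12 largest rises by the smaller difference of the 2 times among genes averaging 5 FPKM or more, the 6 such genes whose times lie furthest apart, and up to 4 members of each list. Alternatives were other scalings, pseudocounts and filters, other moderation, fewer libraries and no term for time.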

Additional observations from a re-analysis of the deposited data

Results flagged for a closer look

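For 3 of the named genes the difference between siNCOA3 and siControl was at least 1.5-fold in opposite directions at 24 h and 48 h. With 1 library for each siRNA and time, these differences between the times were not tested. RP4-583P15.14 stood at 5.13 FPKM in siControl and 8.87 FPKM in siNCOA3 at 24 h, and at 5.33 and 1.59 FPKM at 48 h, so its difference at 48 h minus that at 24 h was -1.86 on the log2 scale. AC018867.2 stood at 13.5 and 8.49 FPKM at 24 h and at 7 and 15.5 FPKM at 48 h, a change of 1.78 between the times. CATSPER2, a sperm calcium channel subunit, stood at 2.70 and 6.01 FPKM at 24 h and at 8.23 and 3.79 FPKM at 48 h, a change of -1.76.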

How the results depend on the processing

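All 13 called genes stayed lower in each of the 16 alternatives that gave them a value. Their number was 7 without scaling and 3 without the trend in moderation. With no filter limma called 0, beside 1377 at an unadjusted p under 0.05. Leaving out 1 library gave 3 to 16 calls. NCOA3 and RPN2 lost their call in 1 alternative, that without the filter (limma adjusted p = 0.136 and 0.162), and NGFR kept its call in 4 of 16, CSF1 and FERMT2 in 6 of 16. Without the term for time, which removes the pairing of libraries by time (no replicate block), 9 genes were called. The 1163 genes that differ between siNCOA3 and siSHC1 became 4 without the filter, 452 without the term for time (no replicate block), and 229 to 954 without 1 library. The count past 1.5-fold at both times was 65 and became 128 with a pseudocount of 0.1, 18 with a pseudocount of 5 and 37 among genes averaging 5 FPKM or more; leaving out a library gives it no value. Genes with the 3′ UTR word lay lower than those without it by a median difference of -0.055 in the fit, which was -0.037 with a pseudocount of 5. Where a cause is not part of the alternative itself, the cause was not tested. A lone library of an siRNA is assumed to vary like the others. The unknown depth limits what low FPKM can show.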
